A study of Rattus norvegicus with 6 samples.

Results

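The contractile apparatus of smooth muscle was examined in primary rat vascular smooth muscle cells, through 44 named genes for actins, thin-filament proteins, tropomyosins, myosin light chains and their regulators, intermediate filaments, dense plaques and Z-disc type proteins. Myosin heavy chains were left out. Members were taken as the rows of counts that carry these gene symbols, which gave 42 of the 30945 genes listed. The RNA of Fhl1 and Pln was not analysed here, and these genes enter only the search of promoter windows. Actc1 had no count in any library, and the other 41 members passed the filter on low counts. Total RNA gave 6 sequencing libraries, 3 labelled Negative_control and 3 labelled siRNA_ANK, where siRNA is a short double-stranded RNA that lowers the messenger RNA it matches. The series title speaks of ANK deficiency, and all 6 libraries share the cell type and differ, per the labels, in that treatment alone; the strain, age and vessel of origin are not in the labels. The comparison asks which genes differ when ANK is lowered. Nothing in the labels ties a replicate to an animal or a culture of its own, so p-values reflect no more than the spread among these samples, which may be technical.

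In a smooth muscle cell, myosin pulls on thin filaments made of actin and tropomyosin, which are tied to the membrane at dense plaques and to each other at dense bodies. Contraction starts when myosin light chain kinase phosphorylates the regulatory light chain, and myosin phosphatase ends it. Contractile cells of the vessel wall are rich in smooth muscle forms of these proteins, whereas cells in culture tend to lose them and to keep the forms that most cell types make. Many of the smooth muscle genes are driven by serum response factor and its partner myocardin through a short DNA element called the CArG box.

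Library totals lay between 15641259 and 17441548 counts, and 13016 genes were tested with edgeR's quasi-likelihood test. Ankh, which encodes the membrane protein ANK, known for moving pyrophosphate out of cells, measured 338, 351 and 367 CPM (counts divided by the TMM-adjusted library size) in negative control replicates 1, 2 and 3 and 84.8, 76.6 and 119.5 CPM in siRNA_ANK replicates 1, 2 and 3, so its groups did not overlap (log2 fold change -1.91 ± 0.16 SE, edgeR adjusted p = 0.000180). Of the ankyrins, whose symbols also begin with Ank, Ank2 was 1.14-fold lower (edgeR adjusted p = 0.0218, not below 0.05 when any 1 control was left out), Ank3 was not called and Ank1 had 3 counts over the controls and 4 over siRNA_ANK. On the first principal component of all genes tested, the 2 libraries with scores closest to those of the opposite group were negative control replicate 2 and siRNA_ANK replicate 3 (-26.7 and 25.4, against -36.3 and -39.1 for the other controls and 36.3 and 40.4 for the other siRNA_ANK libraries). Calls are from all 6 libraries, and the counts per role and list are given again without these 2, a choice made after seeing the data. Markers of smooth muscle outside the members were present, with Myh11, the smooth muscle myosin heavy chain, at 238 to 343 CPM in the controls.

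Most of the contractile apparatus was higher in siRNA_ANK. Of the 41 members tested, 28 rose (68.3%) and 2 fell (4.88%) at an adjusted p under 0.05, where 19.9% of all genes tested rose, 20.2% fell and 40.1% changed in either direction. The median log2 fold change of the members was 0.50, against 0.01 for all genes tested. The 6 members that rose at least 2-fold, a size reached by 4.56% of all genes tested, were Synpo2, Filip1l, Csrp2, Pdlim3, Acta2 and Mylk; none fell that far, where 2.58% of all genes did. In 28 members every siRNA_ANK library lay above every control library, where 25.7% of all genes tested did so, and in 4 members every siRNA_ANK library lay below, where 25.4% did. Without negative control replicate 2 and siRNA_ANK replicate 3, 36 members rose and 3 fell, where 22.9% of all genes tested rose and 23.3% fell. These 2 libraries were left out for lying closest to the opposite group, so a wider gap follows from that choice, and the larger count adds no support. In that fit the actins, the light chain group and the intermediate filaments kept their counts (2, 6 and 0 higher and 0, 0 and 1 lower), while 6 thin-filament proteins were higher and 2 lower, 3 of 4 tropomyosins were higher, and all 10 cross-linker and plaque genes and all 9 LIM, PDZ and Z-disc type genes were higher. The members called there alone were Cnn2, Tpm4, Pdlim7, Csrp1, Ldb3, Flna, Tns1 and Lpp, higher, and Tagln2, lower (edgeR adjusted p from 1.44e-08 to 0.0315). These are bulk libraries, so a change in the number of cells of a type and a change in RNA per cell cannot be told apart.

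**Figure D1:**
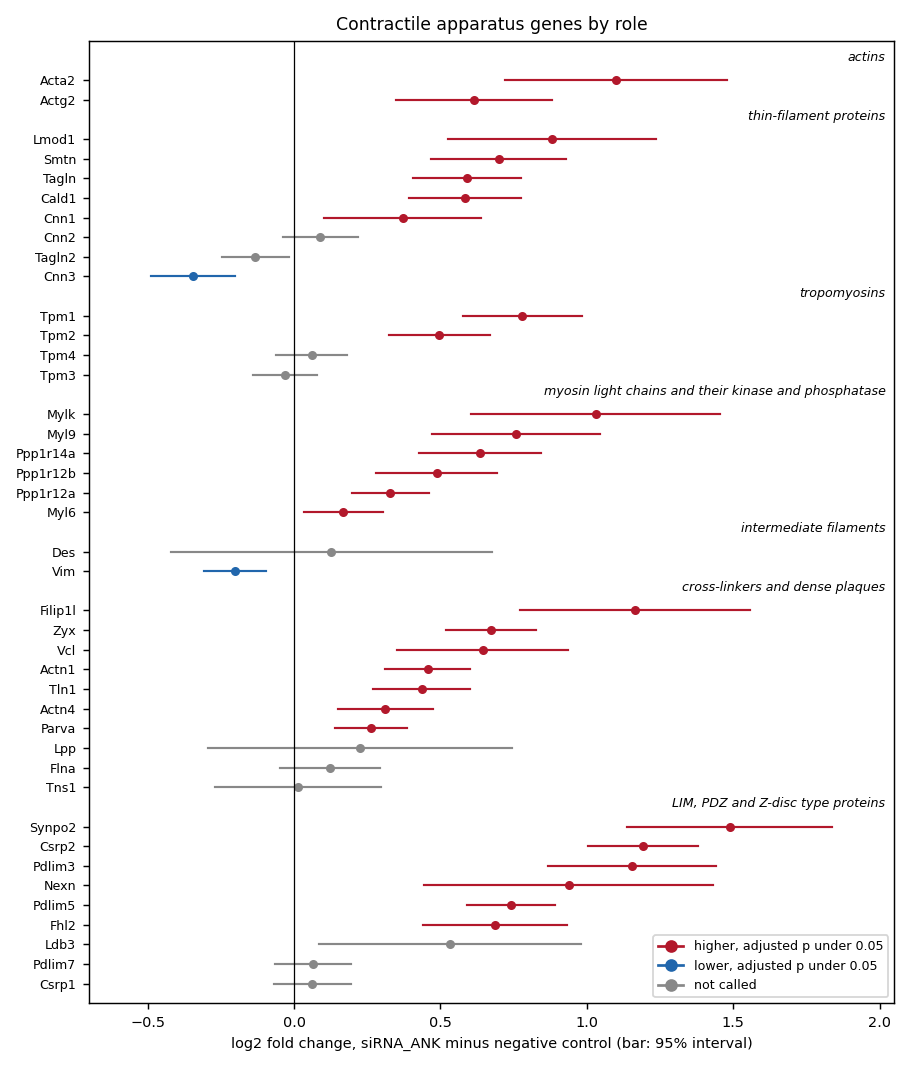
Log2 fold change of each tested member, siRNA_ANK minus negative control, on the horizontal axis with its 95% interval from the edgeR fit, grouped by role; red points were called higher, blue lower and grey not called at an adjusted p under 0.05. Red points fill the light chain and kinase group (6 of 6), and the only blue points are Cnn3 and Vim.

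Smooth muscle actin carried the largest gain in RNA among the filament proteins. Acta2, which encodes alpha smooth muscle actin (ENSRNOG00000058039, chromosome 1, 231746548 to 231759554 on the minus strand of mRatBN7.2), measured 1257, 1657 and 1117 CPM in the control libraries against 2929.9, 3100.1 and 2608 CPM in siRNA_ANK. All 3 siRNA_ANK libraries were above all 3 controls, and the highest control was replicate 2. The mean rose 2.14-fold (log2 fold change 1.10 ± 0.16 SE, edgeR adjusted p = 0.00203). Actg2, the gamma actin of visceral smooth muscle (chromosome 4, 116021832 to 116046465), was far scarcer. It measured 21.6, 24.6 and 17.9 CPM in the control libraries against 33.7, 36.5 and 28.1 CPM in siRNA_ANK, again without overlap, and rose 1.53-fold (edgeR adjusted p = 0.00160). Per length, Acta2 stood at 2347 ± 478 and 4949 ± 474 TPM (counts scaled to gene length and library size, SD, n = 3) and Actg2 at 43.6 ± 6.64 and 65.8 ± 9.18 TPM in the controls and siRNA_ANK. The alpha actin of the heart, Actc1, had 0 counts in each library, which allows up to 3 counts over a group, or 0.0597 CPM in the control libraries against 0.0599 CPM in siRNA_ANK. Actin genes have very similar coding sequences, and how the counting treated reads that match several of them is not given in the sources used here. Set against the cytoplasmic beta actin Actb, Acta2 made up 35.5%, 40.3% and 33.2% of the TPM of this pair in the control libraries against 54.2%, 54.2% and 52.5% in siRNA_ANK.

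Promoter windows from RefSeq (build GRCr8, 250 bases before to 50 bases after each transcription start) were matched by symbol for 36 members, with 42 windows in all. Fhl1 and Pln, whose RNA was not analysed, were among these members. No window was held for Actn4, Lmod1, Lpp, Myl9, Parva, Pdlim3, Tagln and Tns1. The CArG box (CC, then 6 bases of A or T, then GG, the same on both strands) was found in 5 members (13.9%), namely Actc1, Cnn2, Fhl1, Fhl2 and Ldb3, and in 1.77% of the 27457 genes with a window. When 1 of the 6 core bases could be C or G, a looser search added after seeing the windows, 9 members (25%) and 10.1% of all genes held a site, and Acta2, Filip1l, Tpm3 and Zyx joined the list. The windows shown here are those of actin genes with opposite levels and of 3 members with sites. Of these 3, Cnn2 was not called and Fhl2 and Zyx rose. The sites are in capitals and the rest in lower case, each window 5′ to 3′ on the gene's strand. Acta2 lies at chr1:241172454-241172753 (minus strand), Actc1 at chr3:121271778-121272077 (minus), Cnn2 at chr7:10370263-10370562 (minus), the upstream window of Fhl2 at chr9:52954491-52954790 (minus) and the downstream window of Zyx at chr4:72204185-72204484 (plus).
Acta2: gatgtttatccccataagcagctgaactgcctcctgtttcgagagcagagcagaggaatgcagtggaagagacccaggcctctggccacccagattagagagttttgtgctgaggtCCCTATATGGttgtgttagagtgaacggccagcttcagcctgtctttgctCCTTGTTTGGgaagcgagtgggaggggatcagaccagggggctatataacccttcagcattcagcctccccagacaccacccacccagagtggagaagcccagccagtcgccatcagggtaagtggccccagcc
Actc1: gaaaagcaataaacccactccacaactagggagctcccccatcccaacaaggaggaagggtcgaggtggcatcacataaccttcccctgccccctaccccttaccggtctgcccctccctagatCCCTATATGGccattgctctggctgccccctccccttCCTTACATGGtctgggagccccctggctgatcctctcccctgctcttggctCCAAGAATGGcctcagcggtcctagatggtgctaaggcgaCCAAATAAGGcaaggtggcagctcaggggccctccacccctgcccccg
Cnn2: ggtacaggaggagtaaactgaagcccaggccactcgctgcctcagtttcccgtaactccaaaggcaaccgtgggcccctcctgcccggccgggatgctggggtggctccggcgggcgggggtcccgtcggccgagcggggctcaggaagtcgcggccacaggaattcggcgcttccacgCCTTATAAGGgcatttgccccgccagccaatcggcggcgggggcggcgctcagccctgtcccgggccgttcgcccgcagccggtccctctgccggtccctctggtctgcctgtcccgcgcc
Fhl2: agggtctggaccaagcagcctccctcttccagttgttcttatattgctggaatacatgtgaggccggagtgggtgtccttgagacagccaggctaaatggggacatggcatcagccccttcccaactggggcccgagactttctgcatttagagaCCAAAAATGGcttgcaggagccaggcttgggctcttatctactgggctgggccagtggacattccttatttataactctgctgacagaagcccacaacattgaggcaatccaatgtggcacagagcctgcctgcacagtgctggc
Zyx: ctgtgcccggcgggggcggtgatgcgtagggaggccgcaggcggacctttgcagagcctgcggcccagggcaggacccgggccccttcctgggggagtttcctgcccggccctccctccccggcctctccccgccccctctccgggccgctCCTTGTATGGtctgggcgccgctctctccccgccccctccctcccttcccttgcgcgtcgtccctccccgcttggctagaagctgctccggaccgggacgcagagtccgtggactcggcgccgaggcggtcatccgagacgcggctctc

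The Acta2 window held 2 sites of the looser kind, starting 134 and 84 bases before the start. The same letters, CCCTATATGG, stood 126 bases before the start of Actc1, whose window held 4 sites and whose RNA was not detected at this depth. Cnn2 held the symmetrical box CCTTATAAGG 71 bases before its start and did not pass the test, whereas Fhl2, with an exact box in each of its 2 windows, rose. Of the 3 tested members with an exact box, 1 rose (median log2 fold change 0.53), and of the 30 with a window and no exact box, 21 rose and 2 fell (median 0.49). Of the 7 tested members with a site of either kind, 4 rose and 0 fell, with a median log2 fold change of 0.67. Among the 26 tested members with a window and no such site, 18 rose and 2 fell, with a median of 0.47. A match is a stretch of letters in this window and not a bound site, and sites further away or within introns were not searched. The MCAT element (CATTCC on either strand) was in the windows of 10 members (27.8%, against 15.03% of all genes). Of these, 8 rose and 0 fell (median log2 fold change 0.68). Among the 23 tested members with a window and no MCAT element, 14 rose and 2 fell (median 0.44). TATAAA on either strand was in 4 members (11.1%, against 15.3%). The 3 of them that were tested gave 2 higher and 1 lower, and the 30 tested without it gave 20 higher and 1 lower.

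Of the 8 thin-filament proteins tested, Tagln, Cald1, Lmod1, Smtn and Cnn1 rose, Cnn3 fell, and Tagln2 and Cnn2 did not pass the test. Thus 62.5% of this group rose and 12.5% fell, against 19.9% and 20.2% of all genes tested. Tagln, which encodes the actin-bundling protein transgelin (chromosome 8, 46222472 to 46230668), measured 1071, 1267 and 993 CPM in the control libraries against 1652, 1784 and 1577 CPM in siRNA_ANK. Its groups did not overlap and its mean rose 1.51-fold (edgeR adjusted p = 0.000190). Cald1, which encodes the actin- and myosin-binding protein caldesmon, was at 1592, 1879.8 and 1499 CPM and at 2502, 2684 and 2267 CPM, 1.499-fold higher in siRNA_ANK (edgeR adjusted p = 0.000339). The thin-filament nucleator Lmod1 was at 39.5, 51.0 and 34.8 CPM and at 76.0, 87.7 and 67.2 CPM. It had the largest rise of the group, 1.84-fold (log2 fold change 0.88 ± 0.15 SE, edgeR adjusted p = 0.00270). Smoothelin, encoded by Smtn, was at 69.8, 84.8 and 67.5 CPM and at 121, 134 and 106 CPM, 1.62-fold higher (edgeR adjusted p = 0.000379). In all 4 genes the control nearest to siRNA_ANK was replicate 2 and the siRNA_ANK library nearest to the controls was replicate 3.

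The 3 calponins, which bind actin and slow myosin, moved apart. Cnn1, the smooth muscle form, was at 158 ± 28.7 and 205 ± 11.5 CPM (SD, n = 3) and passed the test narrowly (log2 fold change 0.37 ± 0.12 SE, edgeR adjusted p = 0.0339). Its adjusted p was 0.0555 to 0.163 on omission of negative control replicate 1 or 3, or of any 1 of the siRNA_ANK libraries, was left out, and 0.0726 with no filter beyond 1 count. Cnn2 was at 328 ± 19.9 and 349 ± 16.02 CPM (95% interval of the log2 fold change -0.04 to 0.22). Cnn3, the form found in many cell types (chromosome 2, 209518948 to 209550104), was at 456, 459.9 and 457 CPM in the control libraries against 348, 330.1 and 402 CPM in siRNA_ANK. It fell 1.27-fold (log2 fold change -0.35 ± 0.07 SE, edgeR adjusted p = 0.000868), with no siRNA_ANK library as high as any control. Tagln2, the transgelin of non-muscle cells, was at 387 ± 14.1 and 353 ± 11.7 CPM; its groups did not overlap, but it missed the threshold (edgeR adjusted p = 0.0649, 95% interval -0.25 to -0.02). Without siRNA_ANK replicate 3 it passed, lower (adjusted p = 0.0101).

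Among the tropomyosins, which lie along the actin filament, Tpm1 and Tpm2 rose and Tpm3 and Tpm4 did not pass the test. Tpm1 (chromosome 8, 67635479 to 67662802) was at 529, 643 and 491 CPM in the control libraries against 944, 1014 and 897 CPM in siRNA_ANK, 1.72-fold higher (log2 fold change 0.78 ± 0.09 SE, edgeR adjusted p = 7.29e-05). Tpm2 was at 570.3, 683 and 538 CPM and at 831, 884 and 812 CPM, 1.41-fold higher (edgeR adjusted p = 0.000316). Tpm4, the most abundant of the 4 per length, was at 1129.5, 1226 and 1075 CPM and at 1183, 1201 and 1192 CPM, with overlap. Its log2 fold change was 0.06 with a 95% interval from -0.06 to 0.18, and that of Tpm3 was -0.03 with an interval from -0.14 to 0.08. In the tropomyosin pool, measured as summed TPM, the share of Tpm1 was 15.9%, 17.2% and 15.5% in the control libraries against 23.1%, 23.9% and 22.2% in siRNA_ANK. The share of Tpm4 was 59.7%, 57.8% and 59.7% in the control libraries against 50.9%, 49.9% and 52.0% in siRNA_ANK.

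**Figure D2:**
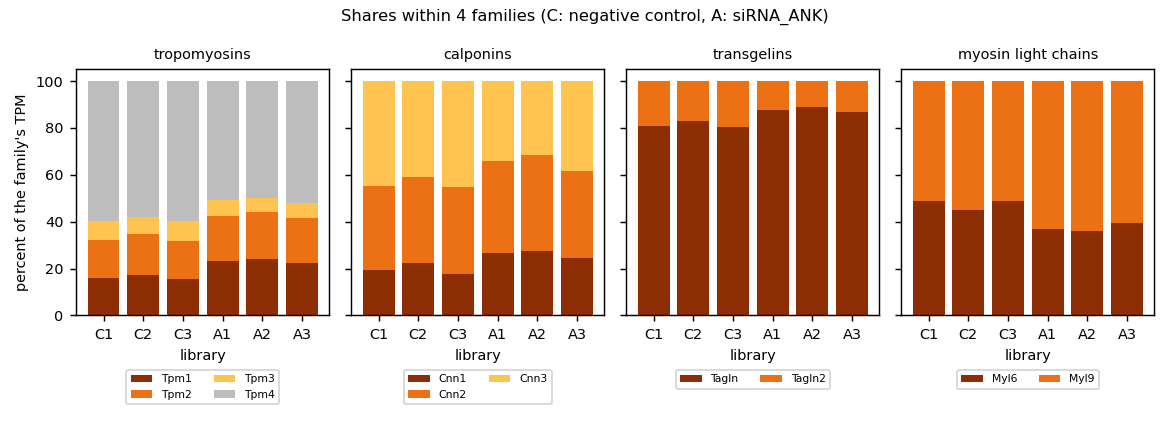
Share of each gene in the summed TPM of its family, in percent on the vertical axis, for the 3 negative control libraries (C1 to C3) and the 3 siRNA_ANK libraries (A1 to A3); each bar is 1 library. Tpm1 holds 15.5% to 17.2% of the tropomyosins in the controls and 22.2% to 23.9% in siRNA_ANK, and Cnn3, Tagln2 and Myl6 take smaller shares in every siRNA_ANK library than in any control.

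All 6 genes of the light chains and of their kinase and phosphatase rose, where 19.9% of all genes tested did. This gene set holds both activators and inhibitors of contraction. Mylk, the kinase that starts contraction (chromosome 11, 65783008 to 66030261), was at 123, 165 and 115 CPM in the control libraries against 281, 309 and 232 CPM in siRNA_ANK, without overlap. It rose 2.04-fold (log2 fold change 1.03 ± 0.17 SE, edgeR adjusted p = 0.00475). Its substrate, the regulatory light chain gene Myl9, was at 268, 329 and 241 CPM and at 477, 521 and 419.8 CPM, 1.69-fold higher (edgeR adjusted p = 0.00181). Ppp1r14a, which encodes the myosin phosphatase inhibitor CPI-17, was at 19.4, 19.0 and 15.5 CPM and at 27.8, 26.5 and 29.6 CPM, 1.56-fold higher (edgeR adjusted p = 0.000133). In this gene siRNA_ANK replicate 3 was the highest of its group. The targeting subunits of the phosphatase, Ppp1r12a and Ppp1r12b, rose 1.26-fold and 1.40-fold, from 134 ± 4.33 to 169 ± 12.3 CPM and from 51.3 ± 1.89 to 71.8 ± 10.8 CPM. The essential light chain gene Myl6, made by most cells, was at 471, 498 and 421 CPM and at 514, 544 and 507 CPM. Its rise was the smallest of the members called, 1.12-fold (edgeR adjusted p = 0.0476), and was lost in DESeq2 (adjusted p = 0.0637), with DESeq2 size factors in edgeR (adjusted p = 0.0530), and on leaving out negative control replicate 1, negative control replicate 3, siRNA_ANK replicate 1 or siRNA_ANK replicate 2 (adjusted p from 0.104 to 0.248). Per length, Myl9 held 51.1%, 54.8% and 51.3% of the TPM of this pair of light chains in the control libraries against 63.0%, 63.8% and 60.4% in siRNA_ANK.

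Of the 2 intermediate filament genes among the members, that of vimentin was by far the more abundant. Vim (chromosome 17, 76668647 to 76677187) was the most abundant member per length, with 8517 ± 191 TPM in the controls and 7276 ± 211 TPM in siRNA_ANK, and ranked 12 among all genes listed by mean TPM. It was at 5250.1, 5458 and 5208 CPM in the control libraries against 4451, 4573 and 4817 CPM in siRNA_ANK, without overlap, and fell 1.15-fold (log2 fold change -0.20 ± 0.05 SE, edgeR adjusted p = 0.00523). Desmin, the intermediate filament of differentiated muscle, was scarce. Des had 41, 31 and 28 counts in the control libraries against 39, 39 and 27 in siRNA_ANK, or 1.75 to 2.30 CPM and 1.71 to 2.34 CPM. Its 95% interval, -0.42 to 0.67 on the log2 scale, holds both a fall and a rise of more than 1.2-fold.

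**Figure D3:**
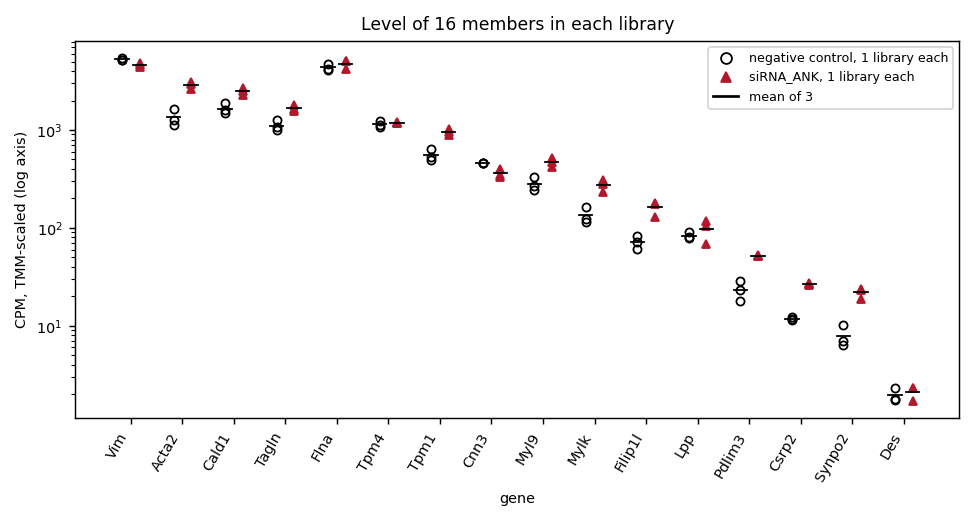
Level of 16 members in each library, in TMM-scaled CPM on a log axis; open circles are the 3 negative control libraries, red triangles the 3 siRNA_ANK libraries and bars the group means. Vim and Cnn3 lie lower in siRNA_ANK, Acta2 moves from 1117 to 1657 CPM in the controls to 2608 to 3100.1 CPM, and the groups overlap in Flna, Tpm4, Lpp and Des.

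Genes of actin cross-linkers and dense plaques were higher or not called, with 7 of 10 up and 0 down. Among all genes tested, 19.9% rose and 20.2% fell. Filip1l, named for its likeness to a filamin-interacting protein (chromosome 11, 42940467 to 43177415), was at 71.6, 83.6 and 60.9 CPM in the control libraries against 175, 179.6 and 130.2 CPM in siRNA_ANK, and its 2.24-fold rise was the largest of this group (log2 fold change 1.17 ± 0.16 SE, edgeR adjusted p = 0.00163). Zyx, which encodes the plaque protein zyxin, was at 258, 281 and 237 CPM and at 418, 441 and 378 CPM, 1.59-fold higher (edgeR adjusted p = 5.56e-06). Vcl, which encodes vinculin, the link from talin to actin, was at 383, 432 and 366 CPM and at 644, 702 and 501 CPM, 1.56-fold higher (edgeR adjusted p = 0.00479). In all 3 genes the groups did not overlap, and siRNA_ANK replicate 3 was the lowest of its group. Actn4, an alpha-actinin that cross-links actin, was at 817, 953 and 775 CPM and at 1091, 1089 and 976 CPM, 1.24-fold higher (edgeR adjusted p = 0.00503). Actn1, the other alpha-actinin, rose 1.37-fold, the integrin activator gene Tln1 1.35-fold and Parva, which links integrin-linked kinase to actin, 1.199-fold.

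The 3 plaque genes that were not called, Flna, Tns1 and Lpp, were split by siRNA_ANK replicate 3. Flna, which encodes the cross-linker filamin A, was the most abundant of the group, at 4203, 4772 and 4122 CPM in the control libraries against 5050.1, 5022 and 4197 CPM in siRNA_ANK. Tns1, which encodes tensin, was at 419, 438 and 426 CPM and at 485, 468 and 341 CPM. Lpp, a relative of zyxin, was at 80.0, 91.8 and 78.0 CPM and at 117, 106 and 69.2 CPM. In Tns1 and Lpp, replicate 3 of siRNA_ANK lay below every control while the other siRNA_ANK libraries lay above them. With this library the edgeR adjusted p values were 0.235, 0.946 and 0.448 for Flna, Tns1 and Lpp, and without it they were 0.00436, 0.0107 and 4.57e-05, all 3 higher, so that 1 library decides these calls.

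The LIM, PDZ and Z-disc type proteins, adaptors that tether signalling and structural proteins to actin, held 3 of the 4 largest fold changes among the members. Here 6 of 9 tested rose with 0 falling, where 19.9% of all genes tested rose and 20.2% fell. Synpo2, an actin-binding protein of Z-discs and dense bodies (chromosome 2, 211216783 to 211371267), had the largest rise of all members. It was at 6.41, 10.2 and 6.99 CPM in the control libraries against 24.0, 23.4 and 18.7 CPM in siRNA_ANK, 2.80-fold higher (log2 fold change 1.49 ± 0.16 SE, edgeR adjusted p = 1.61e-05). Csrp2, a LIM protein of muscle (chromosome 7, 46348686 to 46367745), had little spread, with 11.7, 12.2 and 11.4 CPM in the control libraries against 27.5, 26.2 and 27.0 CPM in siRNA_ANK, 2.28-fold higher (edgeR adjusted p = 1.33e-07). Pdlim3, which binds alpha-actinin (chromosome 16, 46352467 to 46383657), was at 23.0, 28.7 and 18.1 CPM and at 51.9, 51.1 and 52.7 CPM, 2.23-fold higher (edgeR adjusted p = 5.00e-05). None of these 3 had overlapping groups, and in Csrp2 and Pdlim3 siRNA_ANK replicate 3 was level with the other 2.

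Nexn, which encodes the actin-binding protein nexilin, rose 1.92-fold, the PDZ-LIM gene Pdlim5 1.67-fold and the LIM-only gene Fhl2 1.61-fold. The most abundant members of the group per length did not pass the test. Csrp1 was at 506, 561 and 479 CPM and at 525, 551 and 537 CPM (95% interval of the log2 fold change -0.07 to 0.19), and Pdlim7 at 269, 287 and 246 CPM and at 279.6, 284 and 275 CPM (-0.06 to 0.19). The Z-disc gene Ldb3, known from striated muscle, was scarce at 2.87, 4.09 and 2.996 CPM and at 5.81, 4.61 and 3.99 CPM, and just missed the threshold (edgeR adjusted p = 0.0553). It passed, higher, with upper quartile scaling (adjusted p = 0.0470), with no filter beyond 1 count (adjusted p = 0.0414), and without negative control replicate 2 (adjusted p = 0.0273) or siRNA_ANK replicate 3 (adjusted p = 0.0176).

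The median change was smaller among the more abundant members. Of the 20 most abundant, between 283 and 7897 TPM on average, 12 rose and 2 fell (median log2 fold change 0.34), and of the other 21, between 1.74 and 263 TPM, 16 rose and 0 fell (median 0.64). As a description across 41 genes that share the same libraries and scaling, Spearman's rank correlation of the log2 fold change was -0.40 with mean TPM and 0.12 with gene length. Together the 42 members held 2.36%, 2.63% and 2.29% of all counts in the control libraries against 2.92%, 3.01% and 2.71% in siRNA_ANK.

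The members varied together between replicates as well as between groups. Negative control replicate 2 was the highest control in 39 of 41 members, compared with 36.6% of all genes tested, and siRNA_ANK replicate 3 was the lowest siRNA_ANK library in 32 of 41, compared with 38.7%. Among all genes called higher, these shares were 58.6% and 60.9%, against 27 of 28 and 25 of 28 for the members called higher. The median deviation of the members from the control mean, in log2 CPM, was -0.05, 0.14 and -0.13 in negative control replicates 1, 2 and 3 and 0.58, 0.56 and 0.35 in siRNA_ANK replicates 1, 2 and 3. Ankh was highest among the siRNA_ANK libraries in replicate 3, at 119.5 CPM, while in the controls it was at 351 CPM in replicate 2, between the other 2. A relation between Ankh and the members within groups was not tested. Among the members called higher, Ppp1r14a and Pdlim3 did not share the order of the siRNA_ANK libraries, since replicate 3 was their highest. In Csrp2 replicate 3 lay between the others. Replicate 3 was also the highest siRNA_ANK library in Cnn3, Vim and Tagln2. These members lay lower in siRNA_ANK than in the controls, so replicate 3 was nearest to the controls in them too. Negative control replicate 2 was their highest control as well, by little in Cnn3, and so lay furthest from siRNA_ANK in them.

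**Figure D4:**
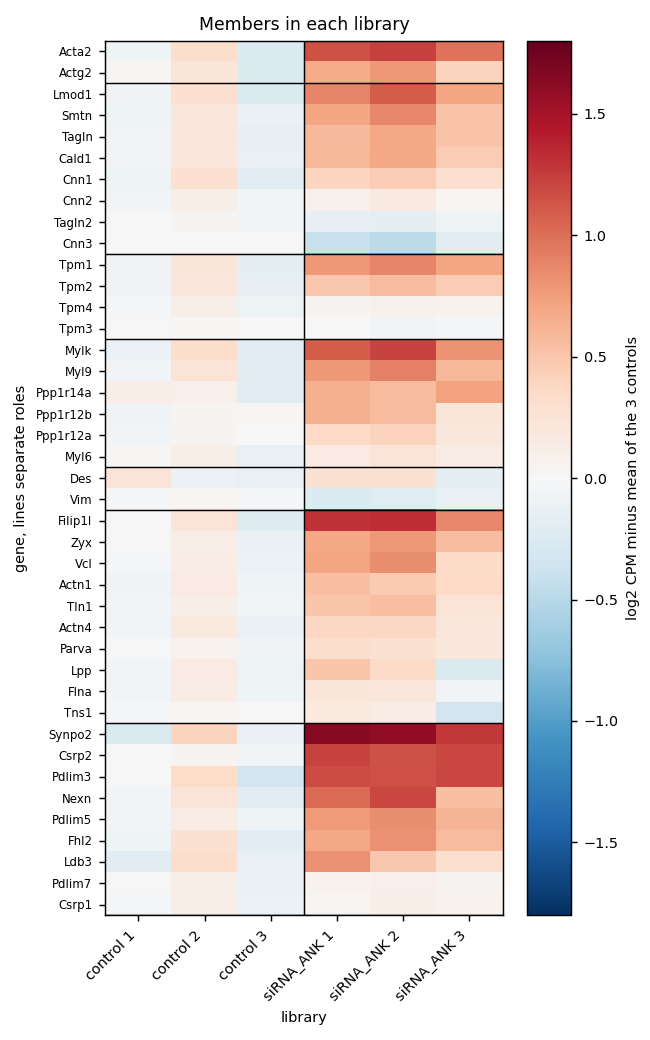
Log2 CPM of each tested member in each library minus the mean of the 3 controls, as colour (red higher, blue lower); rows are genes in order of role and columns are libraries. Negative control replicate 2 is redder than the other controls for most members, and siRNA_ANK replicate 3 is paler than the other siRNA_ANK libraries for most. In siRNA_ANK replicate 3, Lpp, Tns1, Des and, faintly, Flna are blue where the other siRNA_ANK libraries are red. Cnn3, Vim and Tagln2 are blue in every siRNA_ANK library.

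The wider actomyosin and adhesion machinery outside the members held genes that rose and genes that fell, the latter at about the share of all genes tested. A further 103 genes were listed by textbook role, with earlier results of these data known. Of them, 92 stood on 1 row each and 85 were tested. Among the 85, 28 rose (32.9%, against 19.9% of all genes tested). The 19 that fell made up 22.4%, near the 20.2% of all genes tested. The median log2 fold change was 0.07. Without negative control replicate 2 and siRNA_ANK replicate 3, 38 of 87 rose and 19 fell, beside the 22.9% and 23.3% of all genes given above. Among 23 genes of actin turnover, 5 rose and 5 fell (21.7% each, near the shares of all genes), with the same counts without the 2 libraries. Svil, which encodes supervillin, rose 1.71-fold, and the depolymerising and severing factors Dstn and Gsn rose 1.22-fold each, whereas the cofilin gene Cfl2 fell 1.37-fold, the cofilin phosphatase gene Ssh1 1.36-fold and the Arp2/3 subunit gene Actr2 1.25-fold.

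Of 33 partners at adhesion plaques and Z-discs, 14 rose (42.4%) and 7 fell (21.2%, near the 20.2% of all genes tested); without the 2 libraries named above, 20 of 35 rose and 7 fell. The adaptor gene Nedd9 rose 1.99-fold and the actin-binding gene Lima1 1.44-fold. Nes, which encodes the intermediate filament protein nestin, fell 4.61-fold from 82.5 ± 11.3 to 17.9 ± 4.75 CPM (n = 3, edgeR adjusted p = 0.000162). Parvb, the paralogue of Parva, fell 2.87-fold from 73.7 ± 5.48 to 25.7 ± 4.31 CPM (edgeR adjusted p = 3.32e-07), and Flnc, the filamin of striated muscle, fell 1.34-fold. Of 10 genes of the dystrophin complex, which joins actin to the matrix, 4 rose and 2 fell (20%, near that of all genes), and 6 rose and 2 fell without those libraries. Dmd, which encodes dystrophin, rose 3.05-fold from 22.4 ± 2.23 to 68.5 ± 11.1 CPM (edgeR adjusted p = 1.73e-06), with Sspn 1.95-fold and Dtna 1.70-fold higher. The sarcoglycan gene Sgca fell 2.13-fold. The cytoplasmic light chain gene Myl12a rose 1.33-fold, and Actb was at 2885 ± 140.0 and 3085 ± 161 CPM, without passing the test (edgeR adjusted p = 0.189); it passed, higher, without siRNA_ANK replicate 3 (adjusted p = 0.0343).

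**Figure D5:**
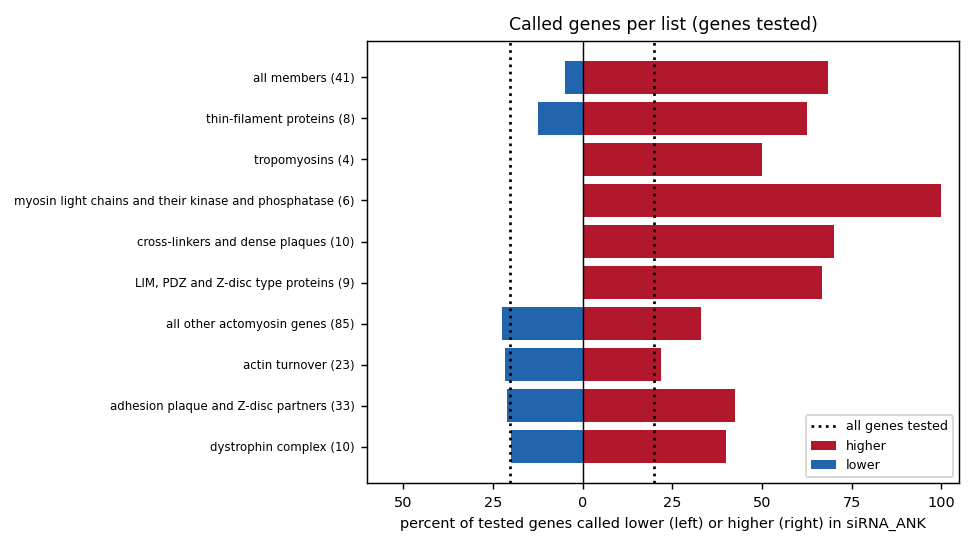
Percent of the tested genes of each list called higher (red, to the right) or lower (blue, to the left) in siRNA_ANK, with the number tested in brackets; dotted lines mark all genes tested (19.9% higher and 20.2% lower). The roles and lists shown are those described in the text with at least 4 tested genes. The members stand at 68.3% higher and 4.88% lower, and the other actomyosin genes at 32.9% and 22.4%.

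Markers of smooth muscle outside the members rose with them. Of 9 tested, 7 rose and 0 fell, where 19.9% of all genes tested rose and 20.2% fell. Without the 2 libraries 8 rose, where 22.9% of all genes tested did. Myh11 was at 247, 343 and 238 CPM in the control libraries against 739.8, 813 and 579 CPM in siRNA_ANK, and Myocd, which encodes myocardin, at 7.87, 11.2 and 6.62 CPM and at 30.4, 31.1 and 18.3 CPM, in the same order of libraries as Acta2 (edgeR adjusted p = 0.00362 and 0.00297). Of 16 skeletal muscle markers 15 were matched and 4 tested, of which 3 rose. The fast skeletal heavy chain genes Myh2 and Myh4, whose sequences are close to each other, and the skeletal actin gene Acta1 rose 9.13-fold, 4.90-fold and 3.96-fold. Myh4 missed the threshold on omission of negative control replicate 1, negative control replicate 3, siRNA_ANK replicate 1 or siRNA_ANK replicate 2 (adjusted p from 0.0511 to 0.0681). The summed level of the list was 26.4 to 60.8 CPM in the controls, highest in replicate 2, and 154 to 240 CPM in siRNA_ANK, while Myod1, Myog, Myf5, Pax7 and Tnni2 were at 0 counts in all 6 libraries. The 13 cardiac markers summed to 3.62 to 6.39 CPM and 10.9 to 12.8 CPM, with 1 of 3 tested higher (2 without the 2 libraries) and Myh6, Myh7, Myl2 and Nkx2-5 at 0 counts.

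Of 10 adventitial fibroblast markers tested, 7 rose and 1 fell, where 19.9% of all genes tested rose and 20.2% fell. The 11 markers summed to 1038, 1041 and 1039 CPM in the control libraries against 1102, 1120 and 1142 CPM in siRNA_ANK. The sum was highest in siRNA_ANK replicate 3, where most members were lowest of their group. Serpinf1 made up most of that sum, at 853 ± 6.96 and 873 ± 26.3 CPM (SD, n = 3), and was not called. The matrix proteoglycan gene Lum rose 2.06-fold, Scara5 3.15-fold and Dpep1 1.99-fold, Clec3b went from 5 counts over the controls to 54 over siRNA_ANK, and Mfap5 fell 1.40-fold. The counts of calls were the same without the 2 libraries. The part of these markers in the members' change was not tested. Of 6 pericyte markers, 3 were higher (50%) and 1 lower (16.7%, near the share of all genes tested), or 4 and 1 without the 2 libraries. They summed to 3253 to 3468 CPM and 2999.7 to 3108.5 CPM. Most of this was Pdgfrb, at 2670 ± 61.2 and 2524 ± 49.4 CPM, which was not called. Cspg4 fell 1.38-fold and Mcam rose 1.13-fold. The other markers that rose were scarce: Rgs5 had 11 counts over the controls and 56 over siRNA_ANK, and Kcnj8 had 21 and 80. Of 8 endothelial markers matched, 2 were tested, 1 fell, and Cdh5, Kdr, Tie1 and Emcn were at 0 counts, with sums of 10.8 to 14.3 and 6.47 to 8.29 CPM. Of 12 macrophage markers none was tested and 6, Ptprc among them, were at 0 counts, with sums of 1.35 to 1.69 and 1.01 to 1.68 CPM. The 6 Schwann cell markers summed to 7.98 to 9.24 and 6.82 to 9.36 CPM, and neither of the 2 tested was called.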

How the data were processed

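The deposited values are raw counts of reads per gene, made by the authors, in a file for each library. The submitters' processing notes name featureCounts 1.5.0-p3, DESeq2 and the build mRatBN7.2. Aligner, strandedness and the treatment of multi-mapping reads: not given in the sources used here. Therefore reads of overlapping, antisense or near-identical genes cannot be told apart. Each file lists 30945 rows, of which 385 unnamed loci held 0.306% to 0.339% of the counts and were kept.

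From these counts, edgeR 4.0.16 (R 4.3.3) kept 13016 genes by filterByExpr (minimum count 10, minimum total 15), scaled libraries with TMM factors of 0.979 to 1.02 and ran its quasi-likelihood F test (robust) on group alone. Adjusted p-values are Benjamini-Hochberg over all genes tested, and calls are at 0.05. The SE is the log2 fold change over the square root of F, and intervals are 95%. TPM were made from the counts and the gene length in the files. An exact permutation test of 3 against 3 cannot go below 0.1 and was not used. The steps were tested on simulated counts.

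The members, roles and lists were chosen with earlier results of these data known. Within each role, values in every library are given for the 2 members with the highest mean TPM, the 3 called members with the largest log2 fold change in size, and each called member that moved against most called members of its role; the others have means or folds. Tns1, Lpp and Ldb3 were added after their values were seen. Of the further actomyosin genes, the 3 with the smallest adjusted p in each direction per sublist and the 2 most abundant are named, except a few that are not reported here; 8 of the 103 were not analysed here and 3 whose symbol stands on several rows were left out. Marker genes named were chosen after their values were seen. The chi-square of replicate pairs per degree of freedom was 2.83 to 12.3, so no pair agreed within sampling noise. A planned comparison of protein sequences was not made. The alternatives were DESeq2 1.42.0, limma-voom (limma 3.58.1), other scalings, other filters, a test against a fold of 1.2, a replicate block and leaving out each library.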

Additional observations from a re-analysis of the deposited data

How the results depend on the processing

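Over the other tests, scalings, filters and 1-library omissions, 23 to 31 members rose and 0 to 3 fell, and over the scalings 27 to 29 rose and 2 fell. In the test against a fold of 1.2, 1335 genes were higher and 1142 lower, 23 members were higher and 0 lower (0 lower among thin-filament proteins), with the calls of Cnn1, Cnn3, Myl6, Ppp1r12a, Vim, Actn4 and Parva lost, and of the other actomyosin genes 17 were higher and 8 lower. Leaving out 1 library gave 26 to 31 members higher and 2 to 3 lower, and 1 to 2 thin-filament proteins lower; without both negative control replicate 2 and siRNA_ANK replicate 3, a choice made after seeing the data, 2 thin-filament proteins were lower. Tns1, not called, had a log2 fold change of 0.01, which was -0.0039 in limma-voom and -0.0034 with the replicate block, and ran from -0.082 to 0.15 when 1 library was left out; the cause was not tested. The replicate numbers are not said to pair libraries, and same-numbered libraries had correlations of deviations of -0.03, 0.06 and 0.04; with the replicate block 28 members were higher and 2 lower, and not every library correlated best with its own number. Des and Ldb3, at under 6 CPM, are limited by depth.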
